A study of Mus musculus with 10 samples.

Results

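Collagen chain genes were compared in the tibialis anterior, a fast muscle of the lower hind limb, of mice labelled Lrtm1 KO and floxed controls labelled Lrtm1 WT. The members are all rows whose symbol has the form Col, a type number, the letter a and a chain number, which gave 34 of the 13492 genes in the table. Of these, 10 encode fibrillar collagens, 5 type IV collagen of basement membranes, 6 FACIT collagens (fibril-associated collagens with interrupted triple helices), 4 type VI collagen of beaded filaments and 9 other collagens. The GENCODE M21 annotation lists 44 such genes; Col2a1, Col4a6, Col6a4, Col6a5, Col9a2, Col9a3, Col10a1, Col17a1, Col19a1 and Col25a1 were not analysed here. Of the 34, 32 had a mean of at least 0 on the log2 scale of CPM (read counts scaled to a common library total) and were tested; Col13a1 and Col28a1 were below that and are given as values.

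All mice were on a C57BL/6 background, aged 6 months and fasted for 3 h. Each group had 5 libraries by the labels, from litters 108, 110 and 112, although the design text gives groups of 4. The sources used here do not give the Cre driver, the deleted part of Lrtm1 or the sex, and the labels do not tie libraries to single animals; p-values here therefore reflect the scatter among these 10 libraries, which may be partly technical. Lrtm1 itself stood at 5.61, 5.66, 5.73, 5.65 and 5.78 log2 CPM in the controls and at 6.20, 6.12, 6.10, 5.97 and 6.21 in the libraries labelled knockout, a log2 difference of 0.44 (SE 0.07; adjusted p = 0.0344). That call was lost without the variance trend (adjusted p = 0.315) and in 8 of 10 fits that left out 1 library. The call held in those without control replicate 4 or knockout replicate 4. Over the 10 fits the adjusted p ran from 0.0169 to 0.639 and the difference from 0.31 to 0.50. These fits also have fewer residual degrees of freedom, so a lost call need not come from the library left out. The groups did not overlap. Lrtm1 was therefore higher, not lower, in the libraries labelled knockout. Without the deleted part, the level that the label predicts is not known, and all comparisons follow the labels. Fast-fibre markers (10 genes) summed to between 119000 and 137000 CPM in each library.

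Collagens are triple-helical proteins of the extracellular matrix. In muscle, fibrillar collagens of types I and III, made mainly by fibroblasts, form the fibres of the connective tissue sheaths, types V and XI regulate fibril thickness, and FACIT collagens decorate fibril surfaces. Type IV collagen forms the network of the basement membrane around each muscle fibre and each capillary, type VI filaments link that membrane to the surrounding matrix, and type XV lies at the outer face of the basement membrane.

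No collagen gene passed the test. Of 32 tested, 0 reached an adjusted p of 0.05 with limma in a fit that counts every term removed before deposit, where 41 of 12223 genes did (0.335%). Within that result, all 5 type IV genes had differences above 0 in the libraries labelled knockout (0.06 to 0.20 log2) and 9 of 10 fibrillar genes had differences below 0 (down to -0.35). Over all genes tested, 48.6% had differences above 0. The values carry 3 residual degrees of freedom, so genes of a class are not independent counts, and these counts were not tested. At an unadjusted p under 0.05, 4 collagen genes lay higher (Col4a1, Col4a2, Col7a1 and Col15a1) and 2 lower (Col8a2 and Col24a1), which is 12.5% and 6.25% of the members against 6.25% and 3.83% of all genes tested. In a fit that counts litter and genotype only, and so has 6 residual degrees of freedom where the values carry 3, Col4a2 and Col15a1 passed higher and Col8a2 lower. That is 6.25% and 3.12% of the members, where 5.15% and 3.48% of all genes passed in those directions, so the shares lie near the background. The count of 3 in that fit was 0 without control replicate 1 or 3 or knockout replicate 1, 2 or 3. It was 1 without control replicate 4 or 6 or knockout replicate 5, and 6 without control replicate 5. The share of all genes that passed in these fits was not counted, so these counts have no background to be read against. The 5 controls and the 5 libraries labelled knockout did not overlap for Col15a1 (higher) and Col24a1 (lower), or 3.12% of members in each direction, against 8.56% and 7.63% of all genes tested.

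The sequences upstream of 3 members are shown as a description, and no result rests on them. Col15a1 and Col24a1 are the tested members whose groups did not overlap, and Col7a1 had the largest difference above 0. Each is the 250 bases before the RefSeq start of the gene on GRCm38.p6, 5′ to 3′ on the strand of the gene (plus for all 3), at chr4:47207762-47208011 for Col15a1, chr3:145292222-145292471 for Col24a1 and chr9:108953336-108953585 for Col7a1. No exon annotated in GENCODE M21 overlaps these windows. Capitals mark matches to CCAAT (the CCAAT box), to GGGCGG (the GC box that Sp1-family factors bind) or to TATAAA (the TATA box), on either strand; the searched letters do not overlap each other.
Col15a1: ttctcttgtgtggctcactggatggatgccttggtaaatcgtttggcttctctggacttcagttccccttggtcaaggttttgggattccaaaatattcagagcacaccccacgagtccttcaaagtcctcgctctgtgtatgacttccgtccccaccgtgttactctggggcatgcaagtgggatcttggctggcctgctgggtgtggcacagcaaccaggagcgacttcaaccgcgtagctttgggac
Col24a1: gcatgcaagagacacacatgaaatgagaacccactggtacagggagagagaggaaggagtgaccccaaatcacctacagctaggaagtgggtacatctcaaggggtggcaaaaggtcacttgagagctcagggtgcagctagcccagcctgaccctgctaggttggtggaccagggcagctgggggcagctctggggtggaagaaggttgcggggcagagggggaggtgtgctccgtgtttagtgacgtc
Col7a1: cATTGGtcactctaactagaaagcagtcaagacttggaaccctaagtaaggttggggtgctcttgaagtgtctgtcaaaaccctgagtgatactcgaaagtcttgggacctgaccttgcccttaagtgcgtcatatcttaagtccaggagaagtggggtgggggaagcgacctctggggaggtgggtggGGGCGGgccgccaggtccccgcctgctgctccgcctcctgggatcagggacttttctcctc
The Col15a1 and Col24a1 windows hold none of these letters. The Col7a1 window holds a CCAAT box on the reverse strand, starting 249 bases before the gene, and a GC box 61 bases before it. RefSeq windows were found for 27 members (30 windows), of which 10 held a CCAAT box (33.3%), 17 a GC box (56.7%) and 3 a TATA box. Among all 32851 windows of the same length the shares were 33.8%, 32.7% and 12.4%. These matches describe the letters and say nothing of what binds there.

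The most abundant collagen transcripts were those of types I, III and IV. Per kilobase of the longest annotated transcript, Col1a2 led at 4.77 log2 CPM per kb, followed by Col4a1 at 4.33, Col3a1 at 4.31, Col1a1 at 3.89 and Col4a2 at 3.77. The type VI genes Col6a1 (3.75), Col6a2 (3.32) and Col6a3 (2.51) and the basement membrane zone gene Col15a1 (2.76) came next. Type V genes, whose protein nucleates type I fibrils, followed at 2.05 for Col5a3, 1.74 for Col5a1 and 1.51 for Col5a2. Col22a1, whose protein sits at the junction of muscle and tendon, was the highest FACIT gene at 1.25. At the lower end lay Col11a1 (-2.21), Col13a1 (-2.19) and Col28a1 (-2.82). Before division by length, the 34 genes together held 904 to 972 CPM in the controls and 928 to 974 in the libraries labelled knockout, so their total differed by less than its spread (945 ± 27.4 against 946 ± 17.4 CPM; SD, n = 5 each). Col1a2, Col4a1, Col3a1, Col4a2 and Col1a1 made up 60.0% of that total.

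**Figure D1:**
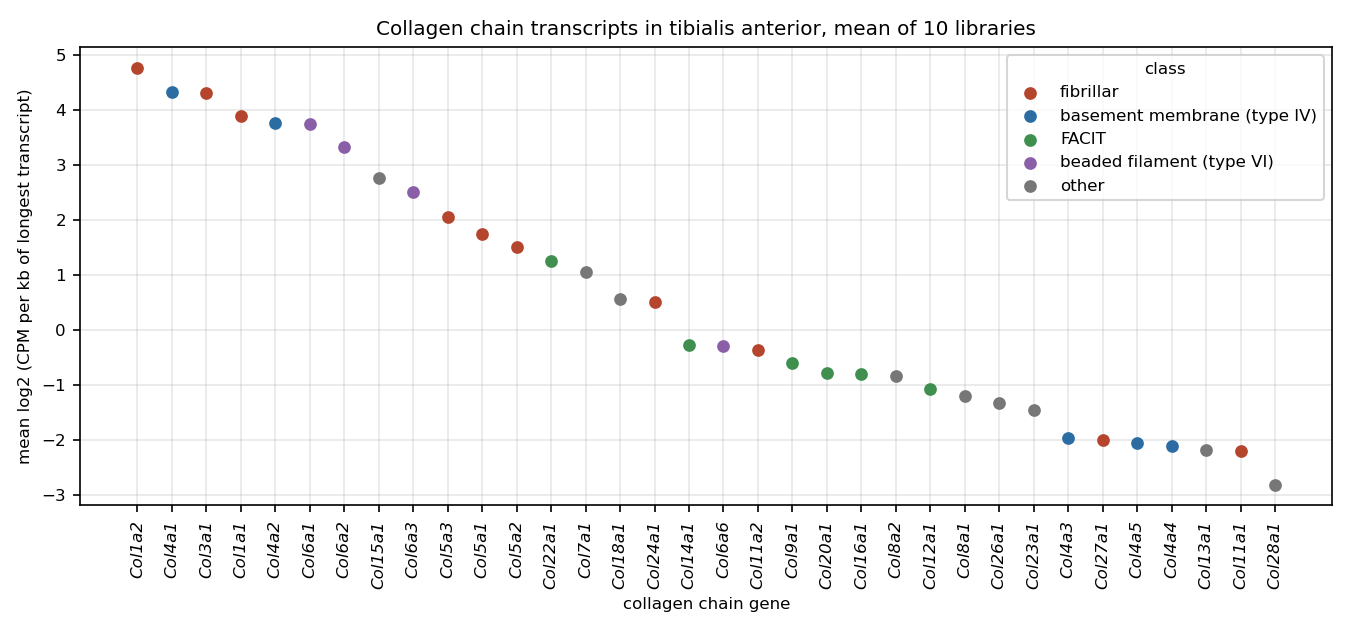
Mean log2 CPM per kb of the longest annotated transcript (vertical axis) for the 34 collagen chain genes (horizontal axis, in order of level), averaged over 10 libraries and coloured by class. Levels run from 4.77 for Col1a2 to -2.82 for Col28a1.

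Among type IV genes, Col4a1 and Col4a2 encode the chains of the basement membrane network found in almost every tissue. In replicate order (controls 1, 3, 4, 5 and 6; knockout 1 to 5, here and in all later lists), Col4a1 stood at 6.90, 6.94, 6.89, 7.14 and 6.89 adjusted log2 CPM in the controls and at 7.22, 7.13, 7.23, 7.08 and 7.10 in the libraries labelled knockout. Control replicate 5 was the only control inside the knockout range; the other 4 lay below all 5 of them. The log2 difference was 0.20 (SE 0.07; 95% interval 0.04 to 0.36; adjusted p = 0.360), or 1.15-fold. Col4a2 stood at 6.33, 6.37, 6.36, 6.47 and 6.39 in the controls and at 6.60, 6.54, 6.58, 6.45 and 6.54 in the libraries labelled knockout. Only control replicate 5 and knockout replicate 4 crossed. Its log2 difference was 0.16 (SE 0.06; 95% interval 0.03 to 0.29; adjusted p = 0.392, and 0.0408 with litter and genotype only). These genes lie head to head on chromosome 8, with annotated starts that overlap by 22 bases (GENCODE M21, GRCm38), and the sources used here do not say whether the authors' counting used the strand.

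Col4a3 and Col4a4, whose chains form the specialised network of kidney, lung and inner ear membranes, lie head to head on chromosome 1 with 71 bases between them. Both were low, at 1.04 and 1.17 log2 CPM in the controls and 1.21 and 1.27 in the libraries labelled knockout. Their log2 differences were 0.17 (SE 0.15) and 0.10 (SE 0.15). Col4a5, their partner on the X chromosome, differed by 0.06 (SE 0.18). For each of the 3 the 95% interval included 0. Over the 5 type IV genes the median log2 difference was 0.16, where it was 0.00 over all genes tested. Their summed level was 206 to 236 CPM in the controls and 229 to 252 in the libraries labelled knockout, 1.13-fold higher on average, with control replicate 5 inside the knockout range. Within litters 108, 110 and 112 the median was 0.12, 0.22 and 0.06, and single members lay between 0.00 and 0.31. With all removed terms counted and without knockout replicate 3, the only such library of litter 110, the fitted median was 0.05. That fit keeps the 3 directions found with all 10 libraries and fits their coefficients again. Its value lay below the 0.12 and 0.06 of litters 108 and 112. Within litters, Col4a1 differed by 0.28, 0.31 and 0.07 and Col4a2 by 0.24, 0.21 and 0.06, so the sign held in each litter and the size was smallest in litter 112. Litter and 3 further directions had been removed from these values, and control replicate 1 is the only control of litter 108. Values within litters, here and in later paragraphs, are therefore not independent repeats.

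Col15a1 and Col18a1 encode the multiplexin collagens of the basement membrane zone, which carry endostatin-like domains. Col15a1 stood at 5.02, 5.10, 4.95, 4.98 and 5.13 log2 CPM in the controls and at 5.19, 5.26, 5.24, 5.22 and 5.17 in the libraries labelled knockout. All 5 of the latter lay above all controls. The log2 difference was 0.18 (SE 0.07; 95% interval 0.04 to 0.33; adjusted p = 0.370, and 0.0340 with litter and genotype only), or 1.13-fold. Within litters 108, 110 and 112 Col15a1 differed by 0.20, 0.22 and 0.15. Col18a1 differed by 0.16 (SE 0.14), within a spread of 2.64 to 3.18 log2 CPM among the controls and 2.95 to 3.33 in the other group. Endothelial cells and pericytes make type IV and type XV collagen, so their markers are given beside these values. The 10 endothelial markers summed to 404 to 437 CPM in the controls and 406 to 433 in the libraries labelled knockout, with a median log2 difference of -0.02, and 0 of 10 passed in either fit. The 9 markers of mural cells summed to 798 to 851 and 816 to 851 CPM (median -0.01; 0 of 9 passed). The groups of both sums overlapped. In bulk tissue, fewer cells of a type and less RNA per cell cannot be told apart.

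**Figure D2:**
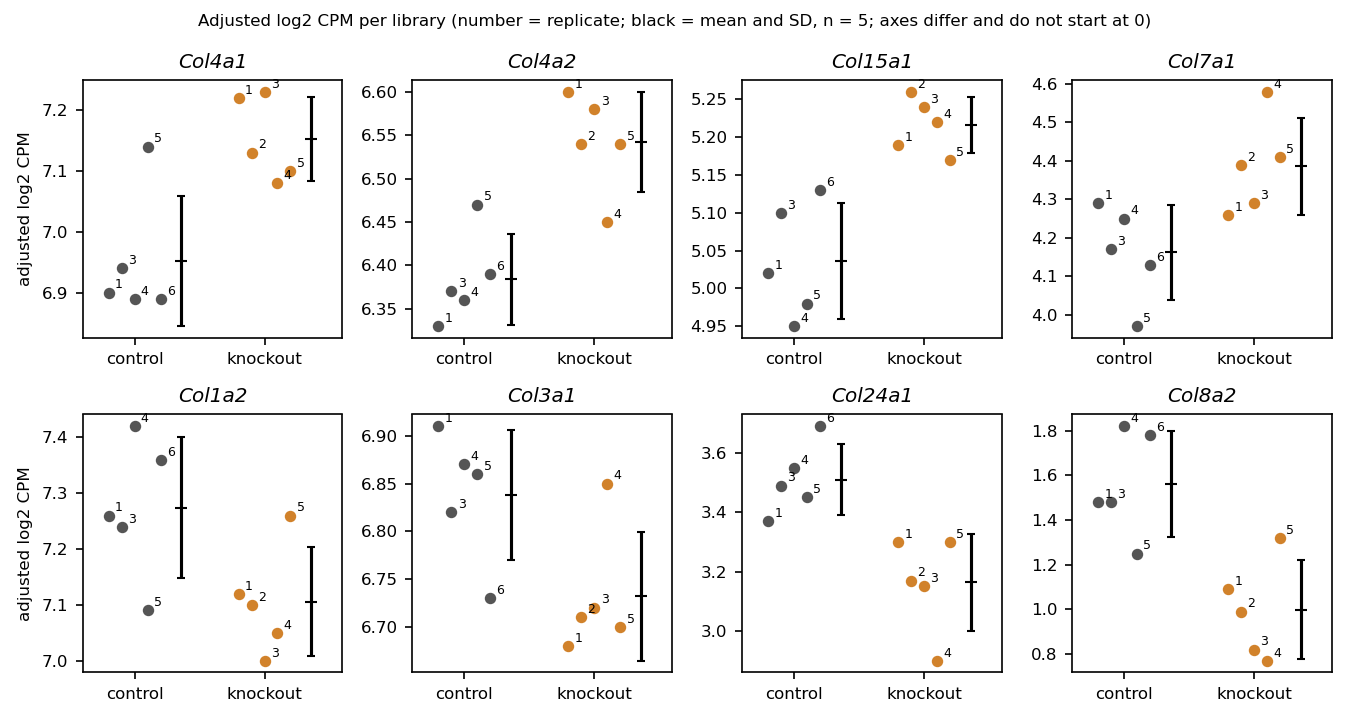
Adjusted log2 CPM (vertical axes, which differ between panels) of 8 collagen genes in each control library and each library labelled knockout; numbers give the replicate and black bars the mean and SD (n = 5). In the upper row the libraries labelled knockout sit mostly higher, with control replicate 5 among them for Col4a1, and in the lower row mostly lower, with knockout replicate 4 among the controls for Col3a1.

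Among the fibrillar genes, the type I and III chains that make up most collagen of the muscle sheaths differed little. Col1a2 stood at 7.26, 7.24, 7.42, 7.09 and 7.36 log2 CPM in the controls and at 7.12, 7.10, 7.00, 7.05 and 7.26 in the libraries labelled knockout. Control replicate 5 was low and knockout replicate 5 high within its group, and the groups overlapped. The log2 difference was -0.17 (SE 0.08; 95% interval -0.35 to 0.01; adjusted p = 0.529). Col1a1 differed by -0.09 (SE 0.09; -0.29 to 0.10), with 6.30 to 6.67 log2 CPM in the controls and 6.30 to 6.60 in the other group. For Col3a1 the controls were at 6.91, 6.82, 6.87, 6.86 and 6.73, and the libraries labelled knockout at 6.68, 6.71, 6.72, 6.85 and 6.70. Knockout replicate 4 lay among the controls, and control replicate 6 inside the range of the other group. Its log2 difference was -0.11 (SE 0.06; 95% interval -0.25 to 0.03; adjusted p = 0.617). The 95% intervals of these 3 genes thus reach no lower than -0.35 and no higher than 0.10.

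Col24a1, a minor fibrillar collagen known from developing bone and cornea, had the largest fibrillar difference. Its controls were at 3.37, 3.49, 3.55, 3.45 and 3.69 log2 CPM, and the libraries labelled knockout at 3.30, 3.17, 3.15, 2.90 and 3.30. All 5 of the latter lay below all controls, with knockout replicate 4 lowest. The log2 difference was -0.35 (SE 0.11; 95% interval -0.60 to -0.10; adjusted p = 0.320, and 0.0502 with litter and genotype only), or 1.27-fold lower. Within litters 108, 110 and 112 it differed by -0.13, -0.37 and -0.48. The type XI genes, which nucleate fibrils in cartilage and tendon, differed by -0.25 for Col11a1 (SE 0.24) and -0.23 for Col11a2 (SE 0.16), both with overlapping groups. Type V genes differed by -0.09 (Col5a1), -0.02 (Col5a2) and -0.04 (Col5a3), each with an SE of 0.07 to 0.08. Col27a1, of cartilage, was the single fibrillar gene above 0. Its controls were at 1.10, 0.88, 1.10, 0.70 and 0.80, and the libraries labelled knockout at 0.76, 0.90, 0.78, 1.19 and 0.98, a difference of 0.01 (SE 0.18).

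Over the 10 fibrillar genes the median log2 difference was -0.10. Their summed level was 417 to 485 CPM in the controls (455 ± 25.3; SD, n = 5) and 397 to 444 in the libraries labelled knockout (417 ± 16.7; SD, n = 5), and the ranges overlapped. Within litters 108, 110 and 112 the median was -0.12, -0.24 and -0.02. With all removed terms counted and without knockout replicate 3, the fitted median was 0.05. Litters 108 and 112 had medians of -0.12 and -0.02, so that sign is not the one of the libraries left. Fibroblasts and tendon cells are the main makers of these chains. The 12 fibroblast markers summed to 850 to 1000 CPM in the controls and 841 to 956 in the other group, with 9 of 12 below 0 and a median log2 difference of -0.10. The sum of the 10 tendon-cell markers was 246, 237, 276, 175 and 274 CPM in the controls and 186, 197, 169, 196 and 228 in the libraries labelled knockout, with 8 of the 9 tested below 0 and a median of -0.23. In this sum control replicates 4 and 6 were highest and control replicate 5 lowest of the controls, and knockout replicate 5 was highest of its group. Of the 10 fibrillar genes, 4 had that order in full (Col1a1, Col1a2, Col11a1 and Col11a2). Col24a1 had it except for its lowest control, and Col3a1, Col5a1, Col5a2, Col5a3 and Col27a1 were instead highest in knockout replicate 4 of that group. The same order in full was seen in other lists, as for Notch3 (mural cells), Adgre1 (macrophages) and Plin1 (adipocytes). It is thus not particular to tendon or fibrillar genes, and its share over all genes was not counted. No fibroblast or tendon-cell marker passed in either fit. The part of fibroblasts and tendon cells in the collagen values was not tested.

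FACIT genes went both ways and none passed. Col22a1, at the muscle-tendon junction, stood at 4.44, 4.26, 4.75, 4.15 and 4.40 log2 CPM in the controls and at 4.40, 4.32, 4.17, 4.35 and 4.66 in the libraries labelled knockout. The groups covered the same range, and the difference was -0.02 (SE 0.13; 95% interval -0.31 to 0.27). Col14a1, of dense connective tissue, was at 2.56, 2.56, 2.25, 1.97 and 2.53 in the controls and at 2.14, 2.55, 2.37, 2.81 and 2.32 in the other group, a difference of 0.06 (SE 0.18). Col12a1, which binds type I fibrils in tendon and muscle, had the largest difference below 0. Its controls were at 2.56, 2.54, 2.85, 2.22 and 2.81, and the libraries labelled knockout at 2.36, 2.32, 2.13, 2.17 and 2.62, a difference of -0.28 (SE 0.16; 95% interval -0.63 to 0.08; adjusted p = 0.616). Col20a1 had the largest above 0, with controls at 1.53, 1.51, 1.37, 1.36 and 1.44 and libraries labelled knockout at 1.53, 1.68, 1.65, 1.82 and 1.56. Its groups met at control replicate 1 and knockout replicate 1, and the difference was 0.21 (SE 0.14; adjusted p = 0.676). Col16a1 and Col9a1 both differed by -0.13 (SE 0.15 and 0.20). Within litters 108, 110 and 112 the median of the 6 was -0.20, -0.30 and 0.21, so litter 112 had the opposite sign. The fitted median was -0.07. With all removed terms counted it was 0.16 without control replicate 1 and 0.17 without knockout replicate 3. Such fits keep the directions found with all 10 libraries and fit their coefficients again from fewer libraries.

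**Figure D3:**
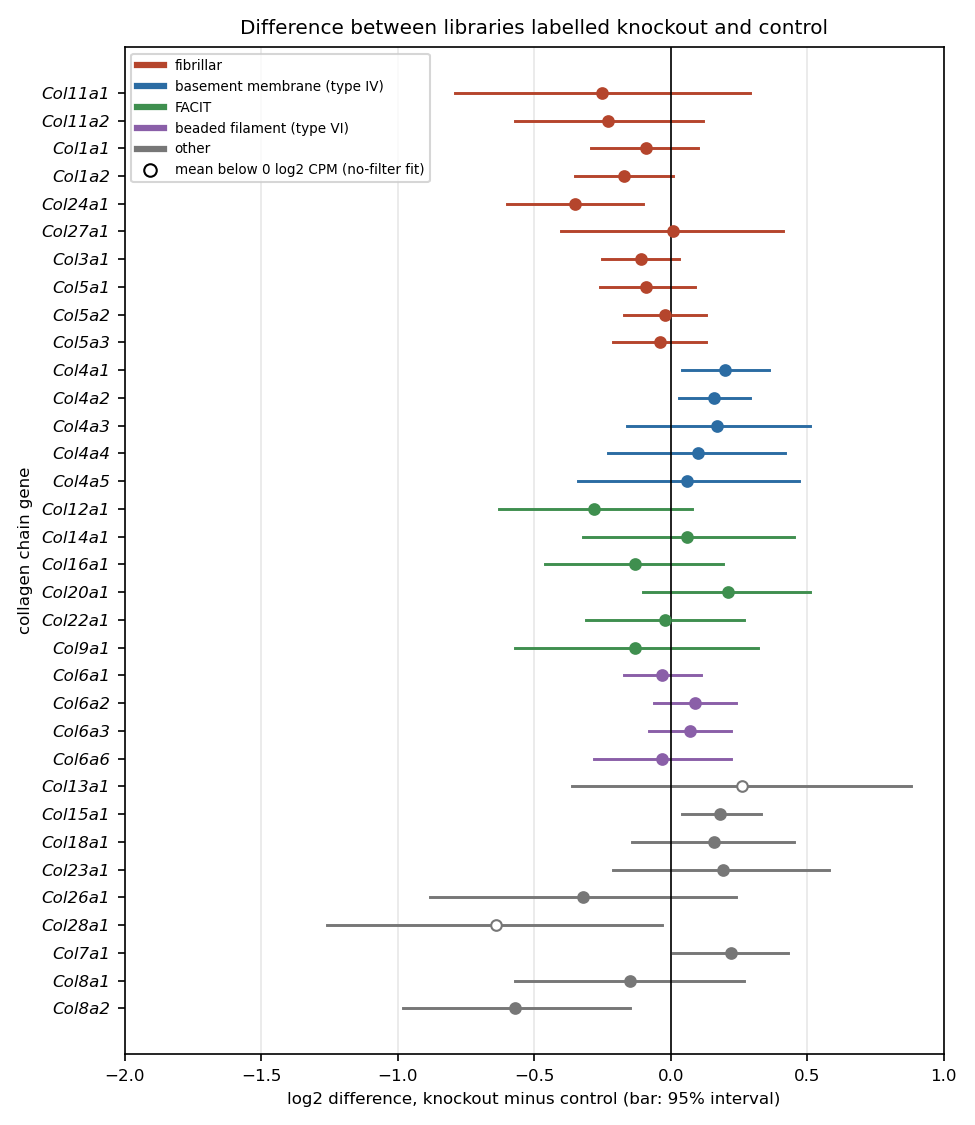
Log2 difference (knockout minus control, horizontal axis) with its 95% interval for each of the 34 collagen chain genes (vertical axis), coloured by class; open points mark Col13a1 and Col28a1, whose values come from the fit without a minimum level. All 5 type IV genes lie above 0 and 9 of 10 fibrillar genes below 0, and most intervals include 0. Over all genes tested, 48.6% lie above 0.

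Type VI genes differed by -0.03 to 0.09 and none passed. Col6a1 was at 5.78, 5.85, 5.73, 5.72 and 5.90 log2 CPM in the controls and at 5.74, 5.80, 5.78, 5.76 and 5.74 in the libraries labelled knockout, a difference of -0.03 (SE 0.06; 95% interval -0.17 to 0.11). Col6a2 was at 5.53, 5.64, 5.48, 5.50 and 5.72 in the controls and at 5.66, 5.71, 5.69, 5.61 and 5.64 in the others, a difference of 0.09 (SE 0.07; -0.06 to 0.24). Control replicates 3 and 6 were high for both genes, and the groups overlapped in each. Col6a3, the largest chain of the type VI trimer, differed by 0.07 (SE 0.07). Col6a6, a later-found chain, was at 2.80, 2.86, 2.95, 2.66 and 3.04 in the controls and at 2.87, 2.85, 2.75, 2.70 and 2.98 in the others, a difference of -0.03 (SE 0.11). The median of the 4 was 0.02, and it was -0.06 without knockout replicate 2.

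Col7a1, of the anchoring fibrils that tie basement membranes to the matrix, had the largest difference above 0 of all tested members. Its controls were at 4.29, 4.17, 4.25, 3.97 and 4.13 log2 CPM, and the libraries labelled knockout at 4.26, 4.39, 4.29, 4.58 and 4.41. Control replicate 5 was lowest and knockout replicate 4 highest, and the groups overlapped. The difference was 0.22 (SE 0.10; 95% interval 0.01 to 0.43; adjusted p = 0.463), and within litters 108, 110 and 112 it was 0.04, 0.09 and 0.44. Col8a2, a network-forming collagen of endothelial and corneal membranes, had the largest difference below 0. Its controls were at 1.48, 1.48, 1.82, 1.25 and 1.78, and the libraries labelled knockout at 1.09, 0.99, 0.82, 0.77 and 1.32. Only control replicate 5 and knockout replicate 5 crossed. The difference was -0.57 (SE 0.19; 95% interval -0.98 to -0.15; adjusted p = 0.332, and 0.04996 with litter and genotype only), or 1.48-fold lower. Within litters 108, 110 and 112 it differed by -0.44, -0.83 and -0.47. Its partner Col8a1 differed by -0.15 (SE 0.19).

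The remaining members were low. Col23a1, a transmembrane collagen, differed by 0.19 (SE 0.18), and Col26a1 by -0.32 (SE 0.25), both with overlapping groups. Col28a1, a collagen of peripheral nerve, was below the minimum for testing. Its controls were at -0.31, -0.40, -0.48, -0.32 and -0.59 log2 CPM, and the libraries labelled knockout at -1.17, -1.07, -1.02, -0.84 and -1.21, without overlap. In the fit without a minimum its difference was -0.64 (SE 0.28; adjusted p = 0.490). Schwann cell markers summed to 42.8 to 66.2 CPM in the controls and 32.6 to 77.7 in the other group (7 of 8 with a row; Sox10 and Ncmap below the minimum), and 0 of the 5 tested passed. Col13a1, a transmembrane collagen of the neuromuscular junction, differed by 0.26 (SE 0.28) in the same fit. The median of the 7 tested members outside the other classes was 0.16, and it was 0.04 without control replicate 5.

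Ratios between chains compare transcripts within a library. Of 9 pairs, most of them chains of the same protein, 2 had ratios that did not overlap between groups; among all pairs of tested genes, 16.2% of ratios did not overlap, so 2 of 9 is read as no result about collagen. The log2 ratio of Col1a1 to Col1a2 was -0.78, -0.77, -0.75, -0.78 and -0.74 in the controls and -0.68, -0.70, -0.71, -0.73 and -0.67 in the libraries labelled knockout, a shift of 0.07. The log2 ratio of Col6a1 to Col6a2 was 0.25, 0.21, 0.25, 0.22 and 0.18 in the controls and 0.08, 0.09, 0.09, 0.15 and 0.10 in the others, a shift of -0.12. The ratio of Col4a1 to Col4a2 overlapped, at 0.50 to 0.68 and 0.56 to 0.65. Ratios of Col3a1 to Col1a2, Col5a1 to Col5a2, Col11a1 to Col11a2, Col4a3 to Col4a4, Col6a3 to Col6a1 and Col8a1 to Col8a2 overlapped as well. These shifts are descriptions with no test, and the adjustment before deposit narrows the spread within groups.

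**Figure D4:**
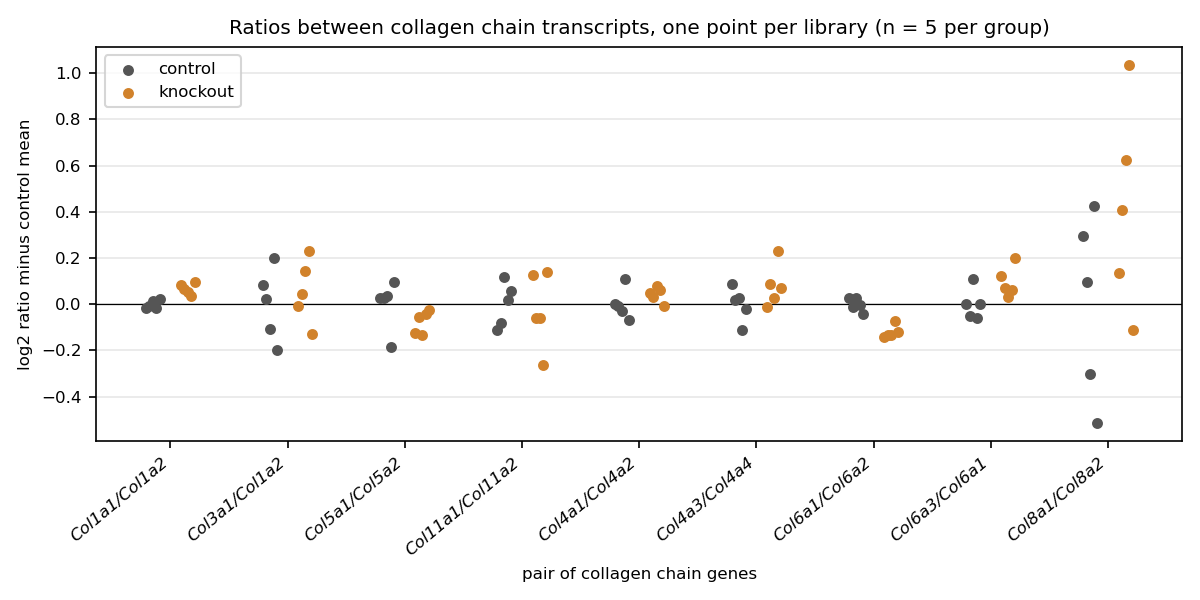
Log2 ratio of 9 pairs of collagen chain genes in each library, minus the mean of the controls (vertical axis; 5 points per group and pair). Points of the 2 groups do not overlap for Col1a1/Col1a2 and Col6a1/Col6a2, whose shifts are 0.07 and -0.12.

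Genes that act on collagen were read from 6 lists. Over all genes tested, 0.335% passed in either direction with all removed terms counted. With litter and genotype only, 5.15% passed higher and 3.48% lower. Of 21 tested genes of chain modification and folding, 1 rose and 0 fell: Serpinh1, the endoplasmic reticulum chaperone of procollagen, at 5.45, 5.42, 5.56, 5.56 and 5.44 log2 CPM in the controls and 5.93, 5.83, 5.85, 5.78 and 5.92 in the libraries labelled knockout, a shift of 0.38 (SE 0.07; adjusted p = 0.0438). P4ha1, a prolyl hydroxylase subunit needed for a stable helix, differed by 0.22 (SE 0.07; adjusted p = 0.281, and 0.0181 with litter and genotype only), and the transcription factor gene Creb3l1 differed by -0.27 (adjusted p = 0.544, and 0.0481 with litter and genotype only). The median of the list was 0.00. Of 13 genes of transforming growth factor beta signalling, a main inducer of fibrillar collagen genes, 1 rose and 0 fell: the signal transducer gene Smad3 (0.35, SE 0.06; adjusted p = 0.0418). Both calls were lost without the variance trend (adjusted p = 0.315 for each). Without 1 library in turn, Serpinh1 passed in 2 of 10 fits, those without control replicate 4 or 5 (adjusted p from 0.0447 to 0.643). Smad3 passed in 1, without control replicate 4 (adjusted p from 0.0403 to 0.252). Their differences were 0.32 to 0.47 and 0.31 to 0.44. As for Lrtm1, these fits have fewer residual degrees of freedom, so a lost call need not come from the library left out. With litter and genotype only, Tgfb3 (0.12) and Smad4 (0.11) also passed higher and the ligand gene Tgfb2 (-0.20) and the co-receptor gene Tgfbr3 (-0.21) lower. The summed level of this list was 456 to 495 CPM in the controls and 510 to 546 in the libraries labelled knockout, without overlap, but Smad3 carried the separation: the other 12 genes summed to 325 to 352 and 339 to 371 CPM, which overlap. In the other 4 lists no gene passed when all removed terms were counted. Aspn (-0.26), a fibril-binding proteoglycan gene, Ddr1 (-0.32), a collagen receptor kinase gene, and Mmp14 (-0.21), a membrane collagenase gene, passed lower with litter and genotype only (adjusted p = 0.00312, 0.00938 and 0.0483). Next to them in these lists came Fmod (-0.36), Ddr2 (0.06) and Mmp15 (0.15), which passed in neither fit. Cross-linking and propeptide enzymes had 0 of 10 past the threshold in either fit, with 8 of 10 below 0 and a median of -0.11; Loxl2 (-0.18) and Lox (-0.20), both cross-linking oxidase genes, were closest.

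Other measures moved with the groups. Adipocyte markers summed to 80.0 to 96.8 CPM in the controls and 69.1 to 79.5 in the libraries labelled knockout, without overlap. How often sums of such lists do not overlap was not counted. Of the 6 tested, 4 passed lower with litter and genotype only, where 3.48% of all genes did. With all removed terms counted 0 passed, where 0.335% of all genes passed in either direction. Fabp4 was the highest of the adipocyte markers, at a mean of 6.01 log2 CPM in the controls and 5.97 in the other group, and differed by -0.05. The other tested markers differed by -0.62 to -2.21. Transcript length also ran with the difference: over all genes the median log2 difference was -0.04 in the shortest of 5 length classes and 0.05 in the longest, which held 22 of the 32 tested collagen genes. Relative to their length classes the median was -0.15 for fibrillar, 0.11 for type IV and -0.06 for all 32 members. The part of adipocytes in the collagen values was not tested.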

How the data were processed

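TRIzol RNA went into directional libraries after oligo-dT selection, per the labels' protocols, and reads were handled with fastp, kallisto and limma, per the submitters' processing notes, without versions. The authors deposited adjusted log2 CPM for 13492 genes; read totals were not used here, so depth is unknown and intervals for counting error could not be set. Back on the CPM scale, libraries sum to between 960166 and 1016398. Litter and 3 further directions are absent from the residuals, so SDs leave out what was removed and SEs are lower bounds.

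Genes with a mean of at least 0 log2 CPM (12223) were fitted with limma 3.58.1 in R 4.3.3 (eBayes with a trend, two-sided, Benjamini-Hochberg over all genes tested, threshold 0.05), with genotype, litter and the 3 directions as terms, leaving 3 residual degrees of freedom. A fit with litter and genotype only was the first alternative; others changed the minimum, scaling, pseudocount, variance prior, blocking and libraries. The steps were tested on simulated data. Every member is named; library values are given for the 2 most abundant members and the largest differences of each class and for those past the threshold in either fit. From other lists, up to 4 genes past the threshold or the 2 closest are named. Members and lists were chosen with earlier results of these data known. Levels per kb use the longest transcript in GENCODE M21 (GRCm38), matched by identifier for 99.1% of tested genes; the sources used here do not give the authors' build.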

Additional observations from a re-analysis of the deposited data

Results flagged for a closer look

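In 4 of 68 member groups of 5 libraries, 1 library stood far from the others by Dixon's criterion (a gap of more than 0.71 of the range), where chance gives about 1 in 20. Control replicate 5 was set apart in 3 of them. It was highest for Col4a1 (7.14 log2 CPM, others 6.89 to 6.94) and lowest for Col5a1 (4.67, others 4.88 to 4.92) and for Col23a1 (0.56, others 0.97 to 1.12). Knockout replicate 4 was highest for Col3a1 (6.85, others 6.68 to 6.72). With litter and genotype only and without control replicate 5, Col4a1 passed higher by 0.26 (adjusted p = 0.00421) and Col5a1 lower (-0.15, adjusted p = 0.0359). For both genes this library was chosen because it stood apart on the side of the other group. Leaving it out therefore widens the difference and narrows the control spread, so these p-values are not support. This fit also has more residual degrees of freedom than the values carry. With all removed terms counted and without that library, neither gene passed (adjusted p = 0.103 and 0.492). Col23a1, in the fit that counts all removed terms, went from 0.19 to 0.05 without that library and passed in neither case. With litter and genotype only and without knockout replicate 4, Col3a1 (-0.15, adjusted p = 0.0430) and Col24a1 (-0.26, adjusted p = 0.0467) passed, while Col15a1 (adjusted p = 0.05106) and Col8a2 (adjusted p = 0.08143) no longer did. Knockout replicate 4 was likewise chosen for its Col3a1 value, so the same limit holds for the p-value of that gene. The share of all genes that passed in these fits with litter and genotype only was not counted.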

How the results depend on the processing

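No collagen gene passed the threshold with all removed terms counted, without the low-value minimum, with a minimum of 2 log2 CPM, without the trend, with libraries centred at their medians, on log2(CPM + 1), or without any 1 library. With litter and genotype only 3 passed, and with genotype only 7. In the fit with litter and genotype only, leaving out 1 library gave 0 to 6 (added after seeing the data), and the share over all genes was not counted there. Over all genes, the 41 became 1054 with litter and genotype only, 2608 with genotype only and 1 without the trend, and ranged from 1 to 54 without 1 library. Without control replicate 1, litter 108 has no control, and without knockout replicate 3, litter 110 has no library labelled knockout. The replicate number as a block, over the 4 numbers that both groups share, gave 0 collagen genes and 127 genes in all; the deviations of same-numbered libraries correlated at -0.846, 0.452, 0.032 and -0.502 for numbers 1, 3, 4 and 5. Libraries 1, 3 and 5 also share a litter with their namesake, and the litter had been removed from these values, which bears on those correlations; the correlation passed 0.1 for number 3 only, so the numbers were not taken to pair the samples. The median of all collagen genes ranged from -0.08 to 0.09 without 1 library, that of fibrillar genes from -0.17 to 0.05, of type IV from 0.05 to 0.21, of FACIT from -0.16 to 0.17, of type VI from -0.06 to 0.09 and of the others from 0.04 to 0.27. Of single members, 13 of 32 changed sign without knockout replicate 3 and 7 without control replicate 1, none of them past the threshold; Col4a1, Col4a2, Col7a1, Col15a1, Col8a2 and Col24a1 changed sign in no setting, but their sizes moved when 1 library was left out. Col4a1 ranged from 0.05 (without knockout replicate 3) to 0.27, Col4a2 from 0.06 (without control replicate 1) to 0.20, Col15a1 from 0.08 (without knockout replicate 2) to 0.24, Col7a1 from 0.14 (without knockout replicate 4) to 0.43 (without control replicate 1), Col24a1 from -0.59 (without control replicate 1) to -0.23 (without knockout replicate 4) and Col8a2 from -0.81 to -0.21 (without knockout replicate 3). Values within litters and the sum without Smad3 were added after seeing the data. The fits without 1 library that count all removed terms keep the 3 directions found with all 10 libraries. Only the coefficients of these directions are fitted again, and fewer residual degrees of freedom are left. Sizes and signs from such fits need not be those of the libraries left. With litter and genotype only and without knockout replicate 3, Col4a1 differed by 0.15 and Col8a2 by -0.46. The cause of the changes between settings was not tested. Depth is unknown, so the precision of the low members could not be set.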
